A study of Mus musculus with 24 samples.

Results

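The regions described here are the stretches of the mouse genome that carried an H3K27ac peak in all 4 deposited peak lists and whose nearest end of a protein-coding gene was at least 10 kb and less than 100 kb away. Overlapping peaks of the 4 lists were merged into 49367 union regions. Of these, 19792 (40.1%) were overlapped by all 4 lists, and 5517 of them (11.2% of the union) met the distance rule. H3K27ac, acetylation of lysine 27 of histone H3, had been mapped by chromatin immunoprecipitation and sequencing in embryonic mouse limb buds. The 4 groups, each with 1 library, were control at E11.5, control at E12.5, Sox9null at E11.5 and Sox9cKO at E12.5, the names being those of the sample titles. The labels give no strain, allele, Cre driver, number of pooled embryos or kind of limb (fore or hind) for any group, so what the controls carried is not known here. A further 20 libraries, for 4 other histone marks and for input DNA, are not used.

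H3K27ac marks active promoters and active distal enhancers, the stretches of DNA that raise transcription of a gene from a distance and that give much of the tissue and stage specificity of gene activity in embryos. In the limb bud, mesenchymal cells shaped by hedgehog, FGF, Wnt, BMP and retinoic acid signals gather into condensations that turn into cartilage. SOX9 is the transcription factor on which that step depends, together with SOX5 and SOX6, and cartilage matrix genes such as Col2a1 and Acan are among its known targets.

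Titles and file names disagree for the Sox9-deficient samples: the one titled Sox9null E11.5 holds a list named for Sox9cKO E12.5, and the one titled Sox9cKO E12.5 a list named for Sox9null E11.5. Each list is called here by its title ("Sox9null-titled", "Sox9cKO-titled"), and the comparisons that depend on it are given both ways. With 1 library per group there is no replicate, no difference was tested, and every value describes these 4 libraries. The lists held 28419 to 36937 peaks, with scores from 50.01 to 3233.06 in column 5, which no header explains and which were used only to order peaks within a list. Many peaks share the score 3100, called the ceiling below, and between 753 and 2931 peaks of a list had at least that score. The depth in reads is unknown. The median peak was 1141 bp wide in the E11.5 control, 1332 bp in the Sox9cKO-titled list, 1707 bp in the E12.5 control and 1778 bp in the Sox9null-titled list. A region's score in a list is the highest score of its peaks there. Levels are given as its rank, the percentile of that score among the 19792 shared regions (100 the highest, ties averaged), and where 4 ranks or scores follow each other, the E11.5 control comes first, the E12.5 control next, then the Sox9null-titled and last the Sox9cKO-titled list.

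Not every region was free of promoters, although none lay near an end of a protein-coding gene. RefSeq promoter windows (250 bases before to 50 after an annotated start, GRCm38.p6) lay whole inside 686 of the 5517 regions (12.4%). They were starts within protein-coding genes, far from either gene end, or starts of noncoding genes. The windows of 6 such genes are shown because they span the range of sequence found in these regions, from starts rich in CG dinucleotides to starts with few. Capitals mark each CG, which reads the same on both strands, and each sequence runs 5′ to 3′ on the strand of its gene.
Kansl1 (chr11:104442242-104442541, minus strand, 41 CG): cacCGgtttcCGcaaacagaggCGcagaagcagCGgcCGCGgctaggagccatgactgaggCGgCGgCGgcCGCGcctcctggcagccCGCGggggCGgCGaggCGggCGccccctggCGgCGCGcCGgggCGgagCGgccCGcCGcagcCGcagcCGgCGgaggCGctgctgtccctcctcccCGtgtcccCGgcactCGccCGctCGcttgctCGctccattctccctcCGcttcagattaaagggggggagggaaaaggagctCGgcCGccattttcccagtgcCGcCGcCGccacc
Gnas (chr2:174329756-174330055, plus strand, 40 CG): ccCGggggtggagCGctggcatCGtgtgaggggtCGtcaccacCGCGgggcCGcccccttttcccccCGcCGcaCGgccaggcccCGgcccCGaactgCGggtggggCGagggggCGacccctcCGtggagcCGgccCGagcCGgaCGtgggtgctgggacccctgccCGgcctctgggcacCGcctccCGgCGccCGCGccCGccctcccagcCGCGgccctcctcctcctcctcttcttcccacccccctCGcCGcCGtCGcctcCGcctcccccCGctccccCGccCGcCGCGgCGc
Runx1 (chr16:92697280-92697579, minus strand, 35 CG): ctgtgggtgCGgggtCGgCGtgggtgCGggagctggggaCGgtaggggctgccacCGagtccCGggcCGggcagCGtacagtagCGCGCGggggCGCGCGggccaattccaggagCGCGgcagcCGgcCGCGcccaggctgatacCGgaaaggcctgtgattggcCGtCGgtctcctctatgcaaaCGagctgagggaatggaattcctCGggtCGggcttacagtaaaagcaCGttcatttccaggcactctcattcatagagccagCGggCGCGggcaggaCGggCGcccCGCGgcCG
Chaserr (chr7:73558346-73558645, minus strand, 30 CG): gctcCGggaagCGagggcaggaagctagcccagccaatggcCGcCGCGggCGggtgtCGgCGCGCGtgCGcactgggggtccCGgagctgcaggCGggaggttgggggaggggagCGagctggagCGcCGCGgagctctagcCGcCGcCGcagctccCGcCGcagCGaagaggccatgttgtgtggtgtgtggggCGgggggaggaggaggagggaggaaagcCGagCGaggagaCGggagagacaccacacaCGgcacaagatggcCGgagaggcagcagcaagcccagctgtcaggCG
Malat1 (chr19:5802623-5802922, minus strand, 10 CG): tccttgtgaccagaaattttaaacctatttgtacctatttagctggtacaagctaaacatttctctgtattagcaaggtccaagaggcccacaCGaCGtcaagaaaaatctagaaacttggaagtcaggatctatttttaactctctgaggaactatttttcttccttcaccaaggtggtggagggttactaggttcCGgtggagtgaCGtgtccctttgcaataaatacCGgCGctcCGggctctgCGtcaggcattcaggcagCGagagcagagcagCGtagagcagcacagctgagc
Gm38543 (chr12:85451801-85452100, plus strand, 6 CG): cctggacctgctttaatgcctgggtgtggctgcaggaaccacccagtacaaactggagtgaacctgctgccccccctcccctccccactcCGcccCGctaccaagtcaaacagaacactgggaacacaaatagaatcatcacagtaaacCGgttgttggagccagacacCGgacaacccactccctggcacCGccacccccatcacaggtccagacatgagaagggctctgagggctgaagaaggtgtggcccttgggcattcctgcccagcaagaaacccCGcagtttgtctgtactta
All but the Runx1 window lay in regions at or above the ceiling in all 4 lists. Kansl1 encodes a subunit of a histone acetyltransferase complex, Gnas the stimulatory G protein alpha subunit at an imprinted locus with several starts, and Runx1 a Runt-domain factor of blood and skeletal progenitors. Chaserr is a noncoding gene beside Chd2, a chromatin remodeller, and Malat1 is an abundant nuclear noncoding RNA. Gm38543 is a noncoding gene in a region 15.5 kb from Fos.

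The regions also held 23 mature miRNAs of the RefSeq table in 14 of their number, with 23 different seeds, so that none shared a seed. The products of the Mir17 and Mir675 hairpins are shown as the best known of these miRNAs in regions near the top of the ranking. Capitals mark the seed, bases 2 to 8.
mmu-miR-17-5p: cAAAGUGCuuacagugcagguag
mmu-miR-17-3p: aCUGCAGUgagggcacuuguag
mmu-miR-675-5p: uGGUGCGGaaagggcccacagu
mmu-miR-675-3p: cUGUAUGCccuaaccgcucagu
The region with miR-17 (chr14:115039764-115043782, nearest coding gene Gpc5) had ranks of 95.4, 96.1, 90.0 and 92.3. The region with miR-675 (chr7:142567924-142581006), the miRNA processed from the imprinted noncoding RNA H19, had ranks of 95.4, 96.1, 86.4 and 92.3. Both were at the ceiling in every list but the Sox9null-titled list. These miRNAs and the promoter windows above were chosen after their values were seen.

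The regions ranked below those near genes in every list. Their median ranks were 29.0, 36.2, 36.2 and 28.8, against 69.8, 64.6, 64.5 and 70.3 for the 9235 shared regions that held a gene end and 39.7, 38.8, 41.0 and 39.4 for the 3029 that lay within 10 kb of one. The 2011 shared regions at 100 kb or more ranked lowest in the E11.5 control and the Sox9cKO-titled list, at medians of 22.9 and 23.0. In the E12.5 control and the Sox9null-titled list they stood at 35.6 and 34.7, close to the regions described here. In the E11.5 control the middle 50% of the regions (13.5 to 50.1) lay below that of regions with a gene end (51.3 to 85.6), while in the E12.5 control they overlapped (17.2 to 61.0 against 40.9 to 83.3). The plot of ranks by distance shows these ranges for every list. Lists with wider peaks (the E12.5 control and the Sox9null-titled list) were also those with higher ranks far from genes, and stage and peak width cannot be told apart in the controls.

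**Figure D1:**
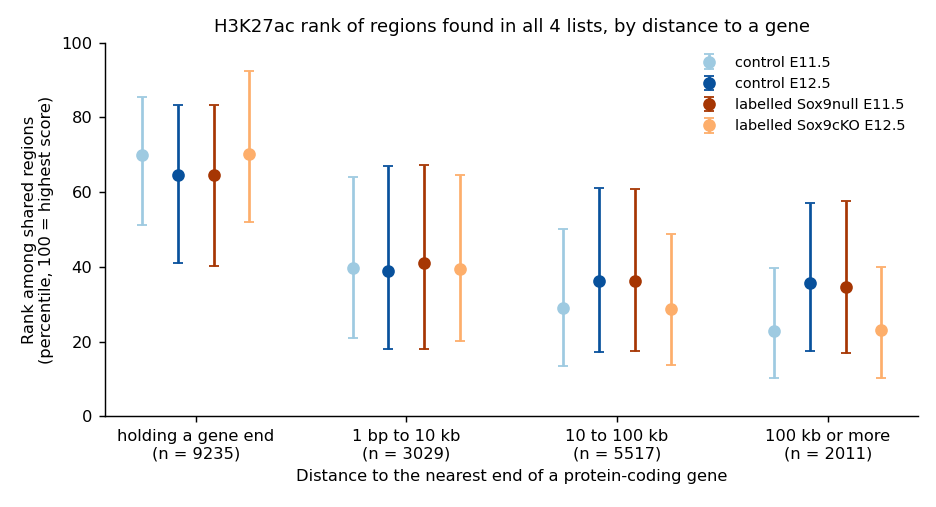
Rank (percentile among the 19792 regions found in all 4 lists) by distance to the nearest protein-coding gene end in each list (points, medians; bars, quartiles over regions). The 5517 regions at 10 to 100 kb have medians of 29.0 and 28.8 in the E11.5 control and the Sox9cKO-titled list, and 36.2 in each of the others.

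Median width of the regions was 2525 bp, 66 were wider than 10 kb, and 4004 (72.6%) had 1 peak in each list. The span of a protein-coding gene contained 52.0% of them; the gene table holds no exons, so exon and intron were not told apart. By distance, 1437 lay 10 to 20 kb from a gene end, 2427 at 20 to 50 kb and the rest at 50 to 100 kb. The X chromosome held 101. At the limits of the distance rule the levels on either side were mixed. Just inside 10 kb lay regions of Adamtsl2 at 10001 bp, Mogat2 at 10005 bp and Rnft1 at 10024 bp, with mean percentiles over the 4 lists of 47.4, 46.3 and 54.8. Just outside lay those of Sc5d at 9989 bp, Morn3 at 9985 bp and Akr1b3 at 9977 bp, with 21.5, 72.7 and 36.7. At the far limit, regions of Wwox (99960 bp, 59.8), Mycn (99948 bp, 72.3) and Pappa2 (99943 bp, 37.9) were inside, and those of Chst9 (100019 bp, 47.8), Prkg1 (100090 bp, 52.5) and Med13l (100150 bp, 47.6) outside.

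The leading regions, ordered by the mean of the percentiles within the 4 lists, lay both inside genes and between them. In all, 74 regions (1.34%) were at or above the ceiling in all 4 lists, against 692 of all shared regions (3.50%), and 281 were so in at least 1 list. The first was chr1:74089279-74095523, nearest to Rufy4 and inside Tns1, the gene of a focal adhesion protein, with scores of 3228, 3100, 3100 and 3100 and a mean percentile of 98.0. The next was the region near Fos, an immediate early transcription factor of the AP-1 family (chr12:85451379-85458357, the one that holds the Gm38543 start), with scores of 3152, 3100, 3100 and 3100. Regions of Tmco5, Prkcz (an atypical protein kinase C), Epcam, Bcl11b (a zinc finger repressor), Pakap, Msra and Taok1 followed. Their scores were all at or above 3100 except in the Sox9null-titled list, where the last 4 had 2754 to 2921. So few scores exceed 3100 that the first 9 places turn on single values above it. The next regions are tied at exactly 3100 in every list.

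Among those tied, the widest lay in Trio, a guanine nucleotide exchange factor (chr15:27776104-27798883, 22780 bp), near Gm38821 (21089 bp) and near Gm40514 (20198 bp). The next by width lay in Mecom, which encodes the factor EVI1 (16745 bp), Dnm3, a dynamin (15795 bp), near Lrrc74a (15383 bp), in the signalling receptor gene Notch2 (15136 bp) and in the netrin receptor gene Unc5b (14612 bp). A pair of regions in the gap beside Cstad (14230 and 13806 bp) and 1 in Il17rd, an inhibitor of FGF signalling (13395 bp), closed the first 20. Since 3100 stood for different percentiles of each list (ranks of 95.4, 96.1, 98.0 and 92.3), a region at the ceiling everywhere shows rank differences that carry no information. Of the 74 regions, 42 lay inside a protein-coding gene. For 4 of them the nearest gene is among the 400 genes of the 19 lists described below. These were the regions of Unc5b and Epcam and, both inside the nuclear factor gene Nfix, 2 regions nearest to Lyl1. None was nearest to a listed chondrogenic or cartilage matrix gene. Such genes were nearest to only 56 and 17 of all 5517 regions, so their absence among 74 says little.

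Regions at the top of the ranking held an annotated promoter window more often than those at its bottom. In the lowest 10% of the regions 5.81% held one, and in the highest 10% 32.6% did. For starts of protein-coding genes the share went from 1.27% to 18.1%, and for noncoding genes from 4.54% to 17.2%. Median width rose as well, from 1635 bp in the lowest 10% to 4779 bp in the highest, and was 6625 bp at the ceiling. A wider region has more room to hold a whole window, and shares at like width were not taken. At the ceiling 34 of 74 regions (45.9%) held a window, 15 of them a coding and 21 a noncoding one, and 40 held neither. The name enhancer therefore did not cover all members, and they are called regions here. In addition, 2133 (38.7%) had an end of a gene of any kind, noncoding included, within 10 kb.

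**Figure D2:**
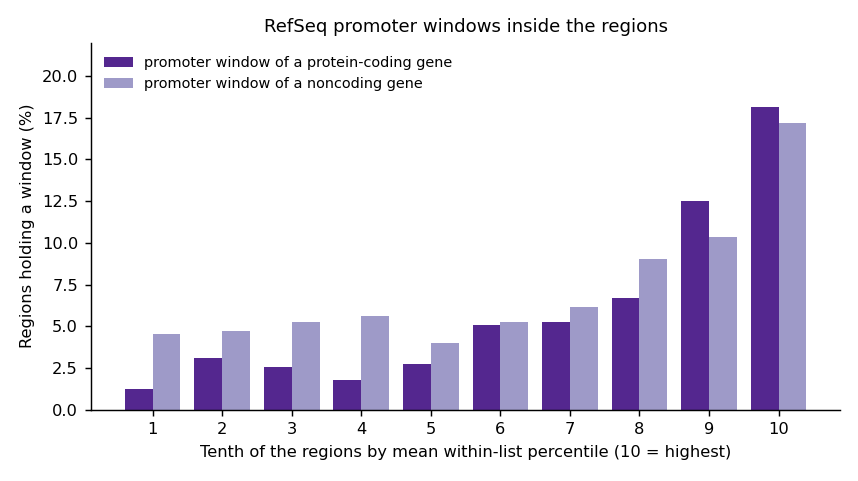
Share of regions (%) that hold a RefSeq promoter window, in 10 groups of 551 or 552 regions by mean within-list percentile, for protein-coding genes (left bars) and noncoding genes (right bars). The shares reach 18.1% and 17.2% in the highest group, from 1.27% and 4.54% in the lowest. Median region width is 4779 bp in the highest group and 1635 bp in the lowest.

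Coding promoter windows inside the leading regions were rich in CG. The median was 25 CG per 300 bases over the 20 coding windows at the ceiling, 17 over the 356 windows of other members, 10 over the 66 windows of members in the lower 50% by mean percentile, and 13 over all 21263 coding windows of the RefSeq table. At least 10 CG were held by 85.0%, 71.1%, 56.1% and 56.8% of these windows. Noncoding windows held fewer: the median was 7 at the ceiling and in other members, and 4 over the 11588 noncoding windows of the table. At least 10 CG were held by 36.7%, 32.5% and 19.1% of these, so noncoding windows of the regions also exceeded those of the table. Of the sequences printed above, the coding starts of Kansl1 and Gnas in regions at the ceiling hold 41 and 40 CG, and that of Runx1, in a region of middle rank, 35. The noncoding Malat1 and Gm38543 sequences hold 10 and 6. Chaserr, with 30, shows that a noncoding start can be rich in CG as well. Windows of 1 gene overlap and are not independent.

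Ranks of the 5517 regions paired the lists in a way that goes with the deposited file names and not with the sample titles. Spearman's rho over the regions was 0.867 between the E11.5 control and the Sox9cKO-titled list, and 0.867 between the E12.5 control and the Sox9null-titled list. The remaining 4 pairs had 0.680 to 0.728, and the pair of controls was the lowest of all, at 0.680. The median absolute difference in rank was 5.99 and 7.03 points in the close pairs and 11.4 to 11.9 points in the others. All 6 values are over the same regions, and the close pairs also share narrow or wide peaks, so they are a description only. The exchange of names was not resolved by these values.

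**Figure D3:**
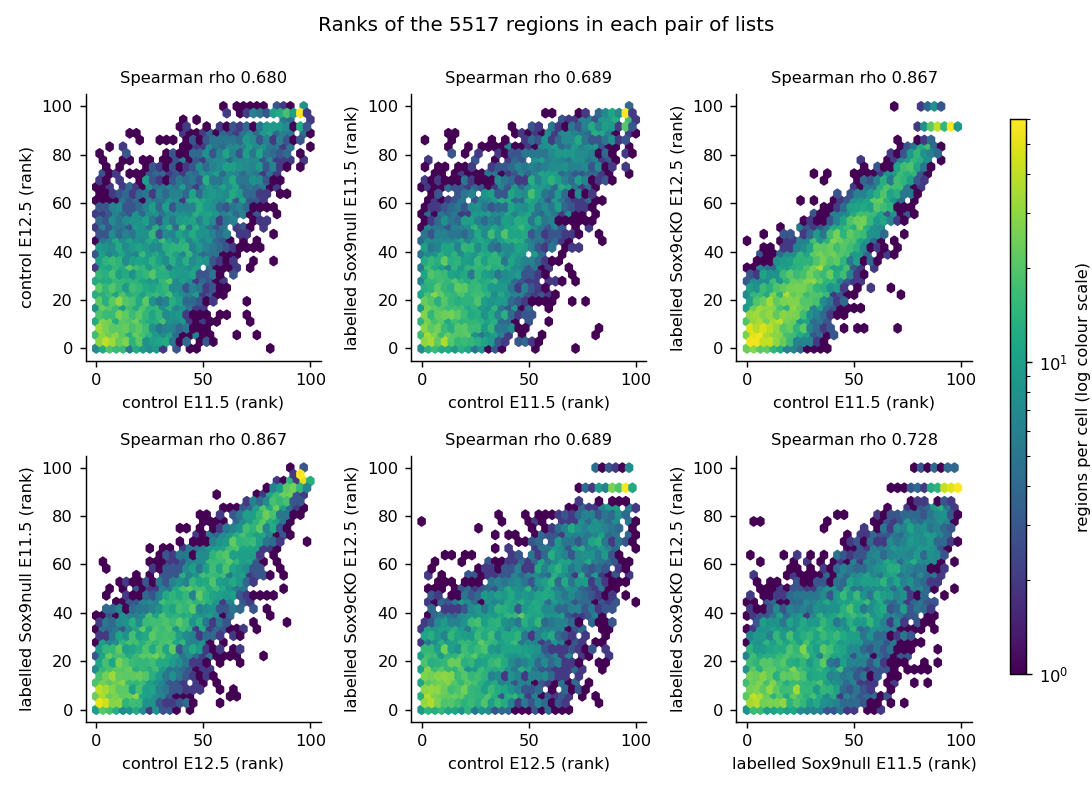
Rank of each of the 5517 regions (percentile among shared regions) in 1 list against another, for the 6 pairs of lists; colour gives the number of regions per cell on a log scale. The cloud is narrow for the E11.5 control with the Sox9cKO-titled list and for the E12.5 control with the Sox9null-titled list (rho 0.867 each), and broad for the other pairs.

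The same was seen region by region under 1 rule: both lists of a pair on one side of both others, and means at least 10 points apart. Both Sox9-deficient lists lay above both controls in 296 regions and below in 291 (5.37% and 5.27%, against 3.5% and 3.13% of all shared regions). Grouped by stage as the titles give it, E12.5 lay above E11.5 in 207 regions and below in 268 (3.75% and 4.86%, against 2.87% and 3.14%). Grouped by stage as the file names give it, E12.5 lay above in 1908 and below in 675 (34.6% and 12.2%, against 19% and 22.2%). The last grouping also sets the lists of wide peaks against those of narrow ones.

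Between the controls, more of the regions stood higher at E12.5 than lower. Of 5517 regions 1183 (21.4%) were at least 20 points higher at E12.5 and 372 (6.74%) at least 20 points lower, where 11.7% and 9.53% of all shared regions were. Over the other 14275 shared regions the shares were 7.92% and 10.6%. The median change was 4.77 points over the regions. The 2011 shared regions at 100 kb or more moved farther the same way, with a median of 9.86 points, 31.0% higher and 3.98% lower. In whole limb buds, more cells of a type and more acetylation per cell cannot be told apart. The change is a shift relative to regions at genes, since ranks within a fixed set must balance. When each region was placed among all peaks of its list instead, 800 stood higher and 616 lower. That placing also depends on the peaks that a list does not share with the others. Shares over all shared regions were not taken under it.

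The shift was present at like levels. Of regions whose mean control rank was between 25 and 50, 30.8% of the 1856 described here stood at least 20 points higher at E12.5 and 9.11% lower, against 3.67% and 30.9% of the 1935 with a gene end. Between 50 and 75 the shares were 27.1% and 3.24% of 988 regions, against 2.09% and 10.4% of 3008. At 100 kb or more they were 43.4% and 4.16% between 25 and 50 and 46.6% and 2.62% between 50 and 75, so the shift was not particular to the regions described here. By distance from a gene, 17.3% were higher at 10 to 20 kb, 22.2% at 20 to 50 kb and 23.9% at 50 to 100 kb. Regions inside and outside protein-coding genes had median changes of 4.62 and 4.98 points. The 326 regions with a coding promoter window behaved more like gene ends, with a median change of -2.47 points, 3.99% higher and 12.3% lower. Those with noncoding windows alone had a median of 3.23 points, with 16.7% higher and 5.28% lower, and the 4831 with none 5.79 points, with 23.0% and 6.48%. The 101 regions on X had a median change of -1.19 points.

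Single regions changed from the bottom to the top of the ranking. The largest gain was 76.9 kb from Cdh11, the gene of a cadherin of mesenchymal cells (chr8:102551304-102555197), with ranks of 5.43 in the E11.5 control, 84.2 in the E12.5 control, 72.5 in the Sox9null-titled list and 2.07 in the Sox9cKO-titled list. Its scores were 76.7, 1884, 846 and 70.1. Regions near Tut7 (2.37, 80.4, 69.0 and 26.0), Hmcn1 (1.90, 77.6, 84.6 and 11.3) and Tmpo (17.6, 89.2, 72.9 and 37.8) and inside Zfp521 (3.19, 75.6, 78.7 and 32.5) and Osbpl1a (15.8, 87.2, 88.6 and 24.5) followed. Hmcn1 encodes an extracellular matrix protein and Zfp521 a zinc finger factor of mesenchymal progenitors. In each of these 6 the Sox9null-titled list was high along with the E12.5 control. The Sox9cKO-titled list was at 37.8 or less.

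The largest loss was near Csf2ra, at chr19:61265574-61267697, with ranks of 81.7 in the E11.5 control, 0.359 in the E12.5 control, 3.96 in the Sox9null-titled list and 77.5 in the Sox9cKO-titled list. Losses near Abt1 (76.0, 6.05, 19.01 and 59.2), Zfp981 (70.7, 14.0, 18 and 62.9) and Gm40862 (55.7, 1.71, 3.76 and 54.7) and inside Lasp1 (66.6, 4.74, 39.8 and 61.5) and Phactr3 (70.7, 10.4, 29.5 and 62.6) followed. The region of Zfp981 lies inside Zfp993, a zinc finger gene of the same family, and whether reads map to 1 place there, or at the regions of Csf2ra near the end of chromosome 19, Abt1 and Gm40862, is not given in the sources used here. In these 6 the Sox9cKO-titled list was close to the E11.5 control, at 54.7 or more, and the Sox9null-titled list at 39.8 or less.

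The regions were shared out over 2871 nearest genes, of which 1706 had 1 region, 197 had 5 or more and 17 had 10 or more. Rad51b, a DNA repair gene 551 kb long, had 16. Bach2, a transcriptional repressor, and Msrb3, a methionine sulfoxide reductase, had 15 each, Gas1 and Nxn 12, and Ets1, Mvb12b, Rgs3 and Ror2 11. Abr, Cstad, Dysf, Gm30733, Rufy4, Septin9, Tspan9 and Zfp516 had 10 each. Large genes leave room for more regions, and 9 of the 15 of Bach2, 8 of Msrb3 and all 12 of Nxn lay inside the gene. Gas1, at 3.1 kb, and Cstad, at 13.9 kb, held none of their regions, which lay in the gene deserts around them.

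With gaps under 50 kb, 2417 regions fell into 541 runs of 3 or more. The longest, with 22 regions over 294 kb (chr11:76278141-76572200), covered Nxn, an inhibitor of Wnt signalling, Timm22 and Abr. It had median ranks of 33.4, 46.2, 45.3 and 34.3. The next, with 16 regions over 148 kb (chr2:30625422-30773306), held no coding gene and lay between Cstad and 1700001O22Rik. Its median ranks were 48.2, 66.5, 69.9 and 49.99, 3 of its regions were at the ceiling in all lists, and 6 held noncoding promoter windows. Runs of 15 regions at Msrb3 between Hmga2 and Lemd3 (24.6, 58.3, 64.8 and 31.9), 14 from Ephb3 to Vps8 (27.4, 50.7, 46.5 and 33.7) and 13 at Tns1 (33.4, 48.8, 45.6 and 36.4) came next. In all 5 runs the E12.5 control and the Sox9null-titled list had the higher medians. The spread within runs was close to the spread over all: the SD of the change between controls was 17.9 points over all regions in runs and 15.7 points within runs.

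Gas1, which encodes a co-receptor for hedgehog ligands, had the strongest shift between controls of the genes with 10 or more regions. Its 12 regions had median ranks of 32.2, 78.0, 75.9 and 47.1. Of them 11 had a higher rank in the E12.5 control, 7 by 20 points or more and none lower by as much. The highest of the 12 (chr13:60265295-60271610, 87.8 kb from the gene) had ranks of 79.5, 90.3, 90.2 and 83.9, and the one with the largest change (chr13:60241536-60245399) 34.5, 85.7, 84.3 and 41.7. The region at 47.8 kb was the exception, with 24.0, 17.9, 15.7 and 28.7.

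**Figure D4:**
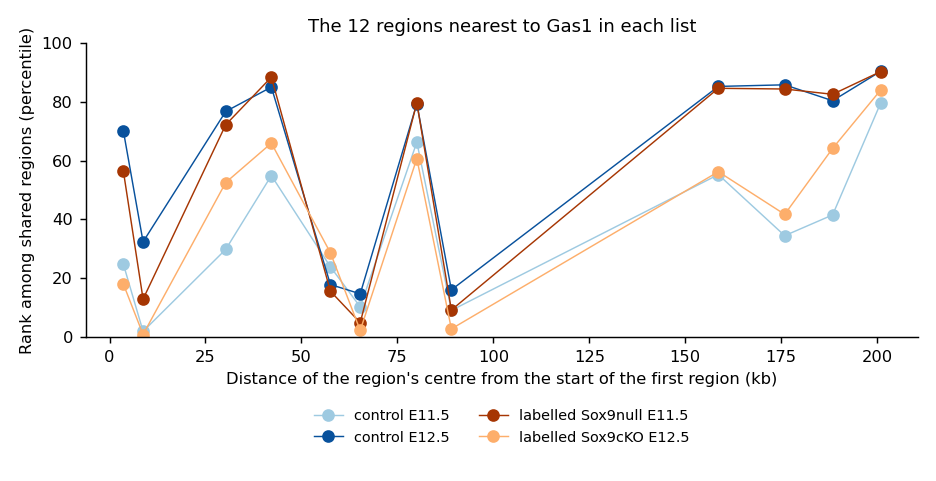
Rank (percentile among shared regions) of the 12 regions nearest to Gas1 in each list, by the distance in kb of their centre from the start of the first region. The E12.5 control and the Sox9null-titled list lie together and, at most regions, above the E11.5 control and the Sox9cKO-titled list; the median ranks are 78.0 and 75.9 against 32.2 and 47.1.

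Hedgehog genes had the largest median change between controls of the gene lists. Over the 19 lists, regions were given to a gene when it was the nearest coding gene, which need not be the gene they act on, and each list is set against the median change of 4.77 points and the 21.4% higher and 6.74% lower of all 5517 regions. Of 25 regions of hedgehog genes 13 stood at least 20 points higher at E12.5 and 2 lower (median change 22.4 points). Gas1 accounts for 12 of the 25 regions and 7 of the 13. Of the co-receptor genes Boc and Cdon, 3 of 6 and 2 of 4 regions were higher, such as the Boc region (chr16:44577842-44581837) with 59.3, 89.2, 89.0 and 52.8. The highest was near Cdon, with 91.1, 96.1, 98.0 and 92.3. The 3 regions of Ptch1, the hedgehog receptor and target, went both ways: the one inside the gene fell (50.6, 2.76, 10.3 and 43.8), 1 at 53.2 kb fell (39.5, 11.8, 13.7 and 26.2) and 1 at 67.6 kb rose (11.9, 44.2, 26.2 and 26.8).

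Of 50 regions of BMP, TGF-beta and joint genes 21 were higher and 3 lower (median 16.7 points). The largest gain was near the ligand gene Tgfb2 (chr1:186545339-186547905), with 0.313, 56.5, 66.5 and 21.8. Erg, an ETS factor of forming joints and vessels, had 4 regions, all with gains of at least 20 points, from 4.53, 59.7, 27.1 and 0.859 in the first to 47.8, 67.8, 71.6 and 54.8 in the last. Bmp7 had 6, among them 4.92, 38.9, 27.9 and 7.10 at 65.2 kb. For the receptors, Tgfbr2 had 5 and Tgfbr3 7, of which 1 fell (48.0, 23.2, 42.6 and 30.8). The inhibitors Smad6 and Smad7 had 9 and 3, and the highest of the list was near Smad7, with 86.0, 87.2, 89.7 and 92.3.

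Of 55 regions of Wnt genes 15 were higher and 4 lower (median 8.28 points). Ror2, a receptor for WNT5A, had 11, all inside the gene, with 4 higher and 1 lower. The largest gain lay in Lef1, a nuclear effector, with 15.3, 67.5, 46.5 and 21.2. The largest loss lay in Tcf7l1, which also held the highest region of the list: 32.9, 2.79, 3.59 and 31.6 and 87.2, 87.3, 87.7 and 99.6. Of 28 regions of FGF genes 5 were higher and 0 lower (median 3.99 points), with Fgfr1 highest (90.4, 96.1, 94.9 and 92.3) and the ligand gene Fgf18 first in gain (8.94, 40.6, 26.7 and 26.8). Of 12 regions of retinoic acid genes 3 were higher and 0 lower (median 9.75), led by Crabp1, a binding protein (36.5, 80.5, 79.1 and 68.9).

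Sox9 had 2 regions, and neither changed by 20 points between controls. At 81.6 kb (chr11:112869316-112871896) the ranks were 43.8, 37.8, 49.5 and 42.4, and at 84.2 kb (chr11:112871940-112874227) 11.46, 10.3, 30.7 and 12.9. Sox5 had none. Sox6 had 4, with 10.9, 17.8, 18.01 and 17.2 and 28.1, 38.4, 21.8 and 23.2 outside the gene and, inside it, 26.9, 0.765, 18.3 and 22.2 and 31.1, 10.9, 28.5 and 22.5; the last 2 were at least 20 points lower at E12.5. Over all 56 regions of chondrogenic regulators 16 were higher and 4 lower (median 10.5 points). The highest was near Sox4 (85.2, 88.5, 93.0 and 92.3), and the largest gain near Nfib (chr4:82603054-82607173), with 32.8, 87.0, 83.1 and 20.3.

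Col2a1, the gene of type II collagen, had 1 region, inside the gene at 10.6 kb from its end (chr15:97988766-97994117). It was high in all lists, with scores of 2537, 2000, 2115 and 3100 and ranks of 88.4, 85.3, 92.0 and 92.3, and held the start of the noncoding Gm46536. Acan, the gene of aggrecan, had 1 at 61.8 kb (chr7:78989923-78991440), with 26.4, 29.3, 4.59 and 18.3. Of 17 regions of cartilage matrix genes 5 were higher at E12.5 and 3 lower (median 7.69 points). Wwp2, a ubiquitin ligase gene and the host of miR-140, held 5, 4 of them higher, such as 8.11, 54.0, 17.4 and 2.05. Matn1, the gene of matrilin, had 1 that fell (46.9, 7.06, 24.2 and 47.7).

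Of 46 regions of limb patterning factors 6 were higher and 3 lower (median 3.51 points), in 20 of 49 genes. The region inside Lhx2, a factor of the distal limb, led the list (95.4, 89.9, 94.1 and 92.3), while another near the gene lost most (44.5, 10.2, 2.93 and 26.6), and the largest gain was near Twist2 (26.9, 66.1, 31.6 and 22.8). Of 6 regions of condensation and adhesion genes 3 were higher (Cdh11 and both regions inside Ncam1) and 0 lower (median 18.3). Of 20 of tendon and connective tissue genes 5 were higher and 1 lower, with 5 each for Col1a2 and Col5a1. The highest was near Col1a2 (91.3, 96.1, 98.0 and 92.3). Of 7 regions of growth plate and osteoblast genes 1 was higher, near Spp1 (56.8, 83.4, 82.5 and 49.6), and of 34 of axon guidance genes 8 were higher and 0 lower (median 7.97), with 7 regions of Ephb3 in 1 run.

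**Figure D5:**
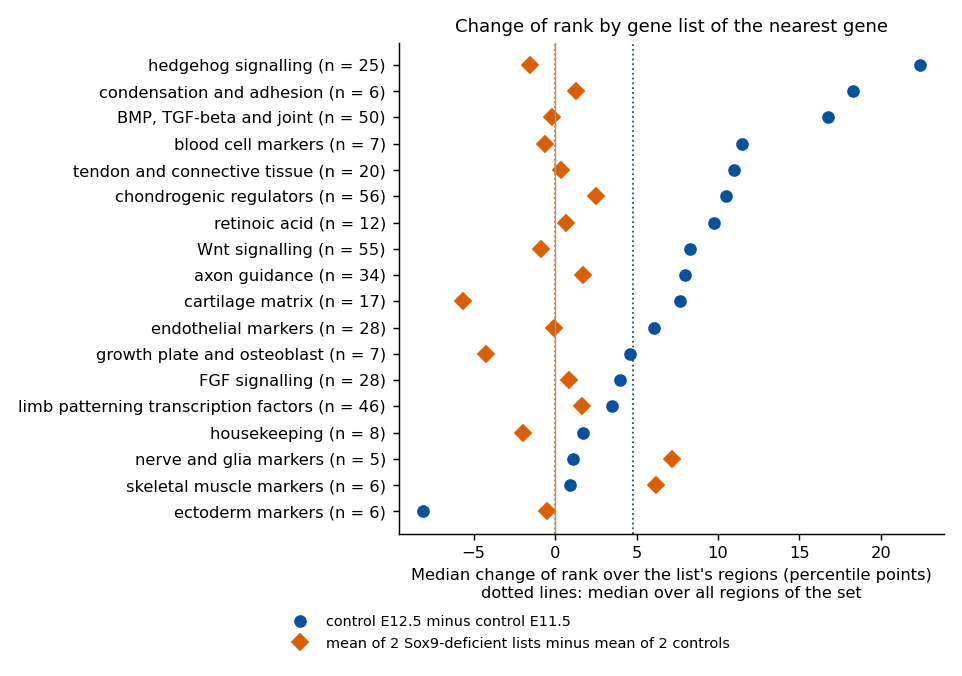
Median change of rank (percentile points) over the regions of each gene list with at least 5 regions, n being the number of regions: circles give E12.5 control minus E11.5 control, diamonds the mean of the Sox9-deficient lists minus the mean of the controls, and dotted lines the medians over all 5517 regions, 4.77 and -0.01. Hedgehog, condensation and BMP, TGF-beta and joint genes have circles at 22.4, 18.3 and 16.7. The diamonds farthest from 0 are those of nerve and glia markers at 7.15, skeletal muscle markers at 6.18 and cartilage matrix genes at -5.69. When regions are counted for any listed gene within 100 kb, these last 3 medians are 1.51, 0.29 and -2.16.

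Regions of genes that mark other cell types of the limb bud were present too. The set leaves out regions within 10 kb of a gene end, at 100 kb or more, or missing from a list. A gene without a region here may therefore still carry H3K27ac. Skeletal muscle markers had 6 regions in 5 of 20 genes and none at Myod1 or Myog. Endothelial markers had 28 in 9 of 21 genes, 11 of them at Ets1 and none at Kdr, with 7 higher and 2 lower between controls (median 6.09). Blood cell markers had 7 in 2 of 16 genes (Lyl1, whose 3 lay inside Nfix, and Ptprc) and none at Gata1 or Tal1. Ectoderm markers had 6 in 6 of 16 genes and none at Trp63, with 0 higher and 1 lower (Tfap2c; median -8.10), and nerve and glia markers 5 in 4 of 15 genes and none at Sox10. Housekeeping genes had 8, with 1 higher and 2 lower, and genes of tissues other than limb 2, near Prl and Ins2. Median ranks of the endothelial list were 16.7, 24.6, 27.5 and 14.3, and of the ectoderm list 35.2, 27.9, 17.9 and 28.5. The part of these cell types in the changes above was not tested.

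Between Sox9-deficient and control lists the median change was -0.01 points, and the 296 regions above and 291 below given earlier were near balance by rank among shared regions. By percentile among all peaks of a list they were not, with 237 above and 406 below, and no share over all shared regions was taken. With 1 list left out, the counts by rank among shared regions were 507 to 1274 above and 649 to 1282 below. The most above came without the Sox9cKO-titled list and the most below without the E11.5 control. Leaving a list out also loosens the rule, since 1 list then stands alone on its side. The rise therefore does not show how far the counts rest on any list. Calls were more frequent than over all shared regions (3.5% and 3.13%) in both directions. The same held for the lists grouped by stage as titled (3.75% and 4.86%, against 2.87% and 3.14%), so it was not particular to Sox9 status. Shares at like levels were not taken for this comparison. Of the 101 regions on X, 8 were above and 1 below (7.92% and 0.99%, against 5.37% and 5.27% of all 5517), which rests on few regions. The largest gain was near Bach2 (chr4:32218733-32221503), with ranks of 0.932 in the E11.5 control, 9.44 in the E12.5 control, 31.5 in the Sox9null-titled list and 44.7 in the Sox9cKO-titled list. Gains near Xxylt1 (10.1, 3.28, 41.1 and 30.0), Cited2, a co-activator of CBP and p300 (3.79, 29.8, 55.8 and 35.0), and Acvr1b, an activin receptor (0.182, 7.96, 45.2 and 18.2), and inside Filip1l (10.8, 13.7, 53.4 and 28.2) and Nhsl1 (9.05, 26.1, 60.9 and 31.0) followed. The call rule makes a deficient list the highest of the 4, and in 5 of these 6, all but Bach2, it was the Sox9null-titled list.

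The largest loss was near 1700018B08Rik (chr8:121467041-121469849), with ranks of 55.0 in the E11.5 control, 77.0 in the E12.5 control, 22.9 in the Sox9null-titled list and 7.04 in the Sox9cKO-titled list. Losses near Bcat1 (71.5, 66.9, 42.1 and 7.90) and inside Pitpnc1 (51.7, 66.7, 21.1 and 10.1), Gng2 (27.3, 64.6, 8.46 and 2.73), Septin9 (66.4, 86.8, 48.8 and 23.9) and Smox (72.1, 86.2, 57.3 and 21.8) came next. The call rule makes a deficient list the lowest of the 4, and in all 6 it was the Sox9cKO-titled list.

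Lists of cartilage genes held changes in both directions. Of 17 cartilage matrix regions 2 lay above and 4 below in the deficient lists, with a median of -5.69 points. Those below were Acan (-16.4 points), 1 of 2 in Chst11 (27.3, 39.0, 20.5 and 2.09), 1 of 2 in Col9a1 (73.9, 81.6, 68.9 and 55.2) and 1 of 5 in Wwp2 (26.7, 49.4, 26.2 and 3.28). Chst11 and Col9a1 also held the 2 regions above (17.7, 4.74, 23.1 and 23.3 and 7.83, 3.36, 28.4 and 9.95), so that both genes had regions on either side. Col2a1 was not called, with a change of 5.30 points. The largest difference of means was near Prg4, the gene of lubricin, but it came from the Sox9null-titled list alone (3.999, 2.72, 62.5 and 0.596). Of 56 chondrogenic regulator regions 6 lay above and 3 below (median 2.50). The upper ones included the region of Sox9 at 84.2 kb (10.9 points) and 2 of 5 in Trps1, led by 31.8, 58.6, 64.3 and 71.5. At the Sox9 region the rise came almost wholly from the Sox9null-titled list, and the Sox9 region beside it was not called. The 2 Sox9 regions lie so close that merging peaks within 500 bp would join them. Calls were not taken under that merge. The lower ones were 1 of 4 of Sox6 (28.1, 38.4, 21.8 and 23.2), 1 of 7 of Nfia and, in Runx1, the region whose promoter window is printed above (59.2, 49.9, 27.5 and 48.5).

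Of 55 Wnt regions 2 lay above and 8 below, the lowest near Sfrp2, a secreted Wnt inhibitor (53.0, 45.1, 34.1 and 18.2), and 2 of 3 near Fzd7 (52.4, 73.5, 42.6 and 45.0 and 31.8, 49.0, 10.2 and 25.2). Limb patterning factors had 3 above and 2 below, led by Tbx4, a hindlimb factor (22.4, 10.9, 53.9 and 26.6), and with both lower regions inside Lmx1b, such as 57.5, 56.0, 37.2 and 35.6. Hedgehog genes had 0 above and 1 below (Cdon, 14.2, 17.4, 3.37 and 1.22), and BMP, TGF-beta and joint genes 2 and 3. FGF genes had 0 and 1 (Spry1, 37.6, 42.0, 23.2 and 26.4), axon guidance genes 3 and 4 (Ntn1 lowest, 46.6, 59.7, 36.8 and 30.2), and tendon genes 1 and 2. Endothelial markers had 1 and 2, and blood, ectoderm, muscle and nerve markers 0 in either direction. The medians of the 5 nerve and glia and the 6 muscle regions were nonetheless 7.15 and 6.18 points. A higher mean in the deficient lists was seen in 5 of 5 and 5 of 6 regions. These rises came mostly from the Sox9null-titled list. Against the E11.5 and E12.5 controls its medians were 12.7 and 7.93 points for nerve and 9.46 and 14.3 points for muscle. Those of the Sox9cKO-titled list were -0.45 and 2.01 points for nerve and -8.14 and -5.98 points for muscle. The part of these cell types in the other differences was not tested. Each of these counts rests on few regions, and none was tested against the 5.37% and 5.27% of all 5517.

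Stage by stage, the counts differed with the list taken for each sample and with the ranking. By the titles, 1172 regions were at least 20 points higher in the Sox9null-titled list than in the E11.5 control and 367 lower, against 11.6% and 9.75% of all shared regions. In the Sox9cKO-titled list 320 were higher and 1170 lower than in the E12.5 control, against 9.01% and 11.3%. By percentile among all peaks of a list the first comparison turned, with 543 higher and 952 lower, and the other had 682 higher and 652 lower. This ranking also depends on the peaks that a list does not share, and no share over all shared regions was taken under it. By the file names the E11.5 pair (Sox9cKO-titled list and E11.5 control) had 151 higher and 139 lower, against 1.84% and 1.48%, and the E12.5 pair (Sox9null-titled list and E12.5 control) 271 higher and 306 lower, against 2.97% and 3.32%. These comparisons share their controls with the one between controls, so that none is independent of it. Under the titles several of the largest changes were at regions already named for the controls. Hmcn1, Wdr11 (11.9, 83.2, 89.2 and 17.9) and Zfp521 led the gains in the Sox9null-titled list, and Csf2ra and Igdcc3 (70.5, 20.7, 0.642 and 65.0) the losses. In the Sox9cKO-titled list the losses were led by Cdh11, Mcu (13.3, 80.4, 40.1 and 5.88) and 1700018B08Rik, and the gains by Csf2ra and Lasp1.

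Under the file names the E11.5 pair gained most at Bach2 and at Trps1, Ptprc (7.89, 52.8, 68.7 and 46.5) and Sox11 (14.2, 34.5, 40.3 and 49.9), and lost most at Bcat1 (63.6 points) and Smox. The E12.5 pair gained most at Prg4, Ldlrad3 (15.2, 5.59, 58.1 and 5.54) and Tbx4, and lost most at Smoc2 (15.2, 65.0, 6.97 and 11.6), Intu (3.64, 61.3, 4.95 and 0.571) and Gng2.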

How the data were processed

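H3K27ac chromatin immunoprecipitation was sequenced from embryonic mouse limb buds, and 4 peak lists (1 library per group) were used. The 20 other libraries were not analysed here. The submitters' processing notes name mm10, CASAVA 1.8 and deepTools, and MACS appears in the names of the peaks. Aligner, caller version, settings and any use of input: not given in the sources used here. Column 5 of a list is a peak score, deposited by the authors without a stated unit, and used only to order peaks within a list. The depth in reads is unknown.

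Peaks overlapping by at least 1 bp were merged across lists, and distances were taken to ends of 21887 protein-coding genes of RefSeq GRCm38.p6. Nearest genes, gene spans and promoter windows come from the same tables. A region was called changed at 20 percentile points. For the Sox9-deficient lists against the controls it was called where both lay on one side with means at least 10 points apart. No difference was tested, since there are no replicates.

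The text names the first 20 regions, the largest clusters and the 6 largest gains and losses between controls and between Sox9-deficient and control lists. For the other comparisons fewer of the largest changes are named. For many of the 19 gene lists (400 of 400 symbols matched) it names the highest region or some of the largest changes. Other names were chosen after their values were seen. The members and lists were chosen with earlier results of these data known. The alternatives changed the ranking, the distance rule, the grouping by file name, the peaks used and the way regions were given to listed genes. The steps were tested on simulated data. Python 3.11.15, numpy 2.4.6 and pandas 2.3.3 were used.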

Additional observations from a re-analysis of the deposited data

Results flagged for a closer look

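By the sample titles, the median change of rank between a Sox9-deficient list and the control of its stage was at least 10 points in opposite directions at E11.5 and E12.5 in 3 gene lists. For the 50 regions of BMP, TGF-beta and joint genes it was 13.8 points at E11.5 and -13.2 points at E12.5, a difference of 27.089 points. For the 25 regions of hedgehog genes it was 10.96 and -18.6 points, a difference of 29.583 points. For the 6 regions of condensation and adhesion genes it was 19.7 and -15.4 points, a difference of 35.09 points. Over all 5517 regions the medians were 5.30 points at E11.5 and -4.37 points at E12.5, so opposite signs were not particular to these lists. These differences were not tested. When the lists were assigned by file name the same medians were -0.675 and 0.942, -2.77 and -1.42, and -2.39 and 0.048 points.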

How the results depend on the processing

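No paired analysis was possible because each group has 1 library. The 5517 regions became 2363 when only the upper 50% of each list's peaks was used, 2649 with regions inside genes left out, and 5974 to 6321 with 1 list left out. With a length-weighted mean score, 41 of the 74 leading regions stayed among the first 74. Runs of 3 or more numbered 318 with a smaller gap and 159 with the upper 50% of peaks. With percentiles among all peaks of a list, 237 regions lay above and 406 below in the deficient lists. Between controls 800 were higher and 616 lower at E12.5. In the Sox9null-titled list 543 were higher and 952 lower than in the E11.5 control. Against the E12.5 control the Sox9cKO-titled list had 682 higher and 652 lower. These percentiles also depend on the peaks that a list does not share with the others. With covered length in place of score, 451 regions lay above and 428 below in the deficient lists. Against the E12.5 control 546 were then higher and 1219 lower in the Sox9cKO-titled list. Of the 4004 regions with 1 peak in each list, 616 (15.4%) were higher and 319 (7.97%) lower at E12.5 between controls. By title, 636 (15.9%) were higher and 310 (7.74%) lower in the Sox9null-titled list, and 261 (6.52%) and 656 (16.4%) in the Sox9cKO-titled list. Shares over all shared regions were not taken under either setting. With groups by file name, 151 were higher and 139 lower at E11.5, and 271 higher and 306 lower at E12.5. Of the deficient-list counts, 705 lay above and 1282 below without the E11.5 control, 1187 and 682 without the E12.5 control, 507 and 1119 without the Sox9null-titled list and 1274 and 649 without the Sox9cKO-titled list. The call rule is looser with 1 list left out, so these rises do not show how far the counts rest on any list. When regions were counted for any listed gene within 100 kb, some medians of the gene lists shrank. Between deficient and control lists they were 1.51 points for 9 nerve and glia, 0.29 for 23 muscle and -2.16 for 37 cartilage matrix regions. Between controls they were 19.6 points for hedgehog, 16.4 for condensation and 12.3 for BMP, TGF-beta and joint genes. By file name, medians of at least 10 points by title turned their sign at E11.5 for chondrogenic regulators (-0.2564 points), BMP, TGF-beta and joint genes (-0.6745), hedgehog genes (-2.7688), condensation genes (-2.3949) and nerve markers (-0.4547), and at E12.5 for cartilage matrix (3.0669), BMP, TGF-beta and joint genes (0.9423), condensation genes (0.048) and endothelial markers (2.3444). Smaller medians turned at E11.5 for cartilage matrix (4.30 to -2.84), Wnt genes (4.97 to -1.95), muscle (9.46 to -8.14) and blood markers (9.08 to -3.10), and at E12.5 for limb patterning factors (-5.26 to 1.49), chondrogenic regulators (-5.42 to 2.04), tendon genes (-6.50 to 1.87), muscle (-5.98 to 14.3) and blood markers (-6.29 to 1.87). The causes were not tested, beyond the fewer regions or lists that some of these settings use.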
